A study of Mus musculus with 19 samples.

Results

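The nuclear-encoded genes of oxidative phosphorylation (OXPHOS) were compared between retinal microglia of lasered and unlasered mice. The members were the protein-coding genes whose symbol names a subunit of complex I (the *Ndufa*, *Ndufb*, *Ndufc*, *Ndufs* and *Ndufv* genes), of complex II (*Sdha* to *Sdhd*), of complex III (the *Uqcr* genes and *Cyc1*), of complex IV (the *Cox4* to *Cox8* genes) or of complex V (the *Atp5* genes). This rule found 92 of the 27299 genes with deposited values, of which 16070 were protein-coding. By their known roles, 37 members were placed in complex I, 4 in complex II, 9 in complex III, 17 in complex IV and 16 in complex V. The other 9 are no structural subunits and were kept apart: the complex I assembly factors *Ndufaf1* to *Ndufaf8*, whose symbols the rule also takes, and *Cox7a2l*, which joins complexes into supercomplexes. *Ndufa4*, first assigned to complex I, was placed in complex IV, where the protein is now known to sit.

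Oxidative phosphorylation takes place at the inner mitochondrial membrane. Complexes I and II pass electrons from NADH and from succinate to ubiquinone, complex III hands them on to cytochrome c, and complex IV reduces oxygen with them, while complex V, the ATP synthase, makes ATP from the proton gradient that complexes I, III and IV build up. Most subunits are encoded in the nucleus and a small set in the mitochondrial genome, so a complete complex needs both. Macrophages and microglia are known to shift between oxidative phosphorylation and glycolysis when they are activated or divide.

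Laser burns that break the membrane under the retina induce choroidal neovascularization (CNV) in mice, and microglia gather at the burns. Microglia were sorted from 6 samples on day 3 after 6 laser burns per eye (CNV d3) and from 6 samples of unlasered mice (control), all at an age of 8 weeks. The labels give C57BL/6J mice and CD45+CD11b+CX3CR1+Ly6C-Ly6G- cells, while the methods of the study name *Cx3cr1* GFP/+ mice, in which GFP takes the place of 1 *Cx3cr1* allele, and cells low for CD45. No label says whether a sample is 1 animal or a pool, so the spread between samples may be technical in part. The control samples had 10963178 to 22335233 reads on genes and the CNV d3 samples 23532260 to 29523018, so every CNV d3 sample was deeper. The values are read counts divided by a size factor per sample (normalized counts), 3 reads were worth 2.22 to 5.96 of them, and limits of this kind cover counting error only.

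The sorted cells carried the microglial markers at high levels, and these were themselves lower in CNV d3. The summed level of 10 microglial markers lay between 1194100 and 1353600 normalized counts in control and between 668270 and 991480 in CNV d3, with 6 of the 10 called lower and *Itgam* called higher. Genes of dividing cells rose, with 10 of 10 called higher by limma (9 by DESeq2) and sums of 150 to 1438 in control and 9385 to 23212 in CNV d3. Of 10 markers of monocytes and macrophages 4 were called higher (*Ccr2*, *Ly6c2*, *Plac8* and *Itgal*), with sums of 363 to 1379 against 1246 to 4507. *Ly6c2* was at 0 in all control samples. *Mrc1* of the same list went the other way, with a mean of 350 in control and 113 in CNV d3. Its log2FC of -1.44 was not called by limma, while DESeq2 called 4 of the list higher and 1 lower. Of 14 photoreceptor markers limma and voom called 0 (limma had 1 at an unadjusted p under 0.05) and edgeR and DESeq2 called 1 higher, and their sums ran from 874 to 7794 in control and from 689 to 13664 in CNV d3. The 4 neutrophil markers in the table summed to at most 22.3 in any sample, and the 7 of the retinal pigment epithelium to at most 363. Of 8 markers of Mueller glia and astrocytes *Vim* was called higher and *Slc1a3* lower. How far these cells take part in the values below was not tested, and in bulk samples a change in the number of cells of a type and in the RNA per cell cannot be told apart.

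Part of the OXPHOS genes rose in CNV d3, each by a moderate amount. A linear model (limma) of log2(normalized counts + 1), fitted to the 27299 genes at once, gave the log2 fold change (log2FC, CNV d3 minus control). At a Benjamini-Hochberg adjusted p under 0.05, the threshold for a call used throughout, 30 of the 92 members were higher in CNV d3 and 0 were lower. Over all genes 8.29% were called higher and 4.57% lower. As most members are well expressed, genes with a mean of at least 100 normalized counts over the 12 samples are the closer background, and of these 15.3% were called higher and 10.8% lower. The median log2FC of the members was 0.36, beside 0.15 over all genes and 0.06 over the genes with a mean of at least 100. In 84 of the 92 members (91.3%) the log2FC was above 0, as it was in 54.7% of the genes with a mean of at least 100. All 6 CNV d3 values lay above all 6 control values in 15 members (4.64% of all genes, 9.7% of those with a mean of at least 100).

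None of the members reached the threshold of the study for differentially expressed genes (DEG), an absolute log2FC above 1.5 with an adjusted p under 0.05, which 3.91% of all genes passed in the higher direction. At an unadjusted p under 0.05 with that fold, limma and voom had 1 member, *Cox4i2*, and edgeR and DESeq2 had 0, and with the adjusted p the number was 0 by each of these tools. In the lower direction limma, edgeR and voom each had 1 member at an unadjusted p under 0.05, which in limma was *Atp5l*, and 0 called, while DESeq2 called 1. Of the 92 members 87 had a mean of at least 100 normalized counts, and the other 5, all isoforms or copies of complex IV subunits, had 0 calls by any of the 4 tools (limma had 1 at an unadjusted p under 0.05).

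The complexes differed in how many of their members were called. Complex II had 3 of 4 members higher, complex IV 10 of 17, complex III 4 of 9, complex V 7 of 16, complex I 5 of 37 and the assembly factors 1 of 9. The shares in complex I (13.5%) and in the assembly factors (11.1%) lay under the 15.3% of the genes with a mean of at least 100. The median log2FC values were 0.60 in complex IV, 0.47 in complex III, 0.45 in complex V, 0.43 in complex II, 0.24 in complex I and 0.08 in the assembly factors. These are descriptions, and the differences between complexes were not tested. With 1 sample left out, the median of the assembly factors ran from 0.05 (without CNV d3 replicate 2) to 0.23 (without control replicate 5). That of complex IV ran from 0.53 (without CNV d3 replicate 3) to 0.72 (without control replicate 3). Upper-quartile scaling gave 0.0043 in the assembly factors and 0.53 in complex IV. A correction for transcript length and GC content gave 0.30 in the assembly factors, 0.33 in complex I and 0.91 in complex IV. The count of complex IV depended on the samples in the fit. It fell from 10 to 5 without CNV d3 replicate 2 or 6. It fell to 6 without CNV d3 replicate 3 or 5 or without control replicate 1, 2 or 5, and to 7 without control replicate 6. Calls over all genes fell as well, for example from 2264 to 1737 higher without CNV d3 replicate 6. The count of complex I rose from 5 to 9 without control replicate 3 or without CNV d3 replicate 4.

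**Figure D1:**
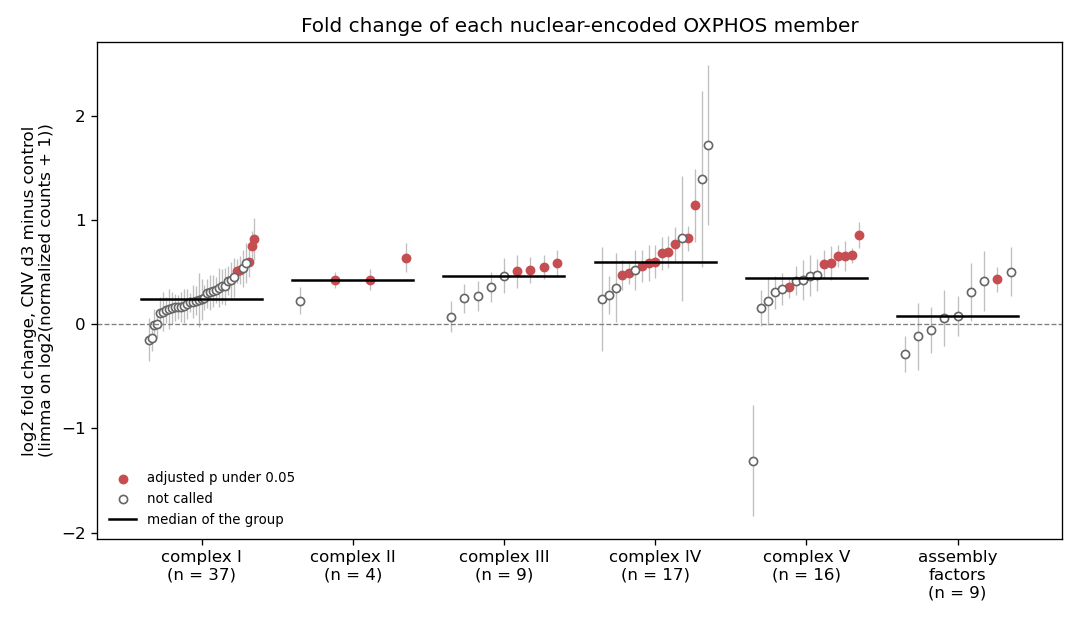
Log2FC of each of the 92 members (y axis, CNV d3 minus control, limma on log2(normalized counts + 1), bars are standard errors), ordered within each complex (x axis). Filled points passed an adjusted p of 0.05 and the black lines are group medians, 0.60 in complex IV and 0.24 in complex I. The single member far below 0 is *Atp5l*, at -1.31.

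Within each group of 6, the samples differed from each other over nearly all complexes together. Expressed as the median log2 difference from the control mean over the 87 members with a mean of at least 100, the control samples lay between -0.11 and 0.28 and the CNV d3 samples between 0.11 and 0.61, so the groups overlapped. Control replicate 3 was the control sample at 0.28, and it was the highest of the control samples for 46 of the 87 members. CNV d3 replicate 3 was highest in its group for 54 members and CNV d3 replicate 4 lowest in its group for 61. Replicate 3 of the control had the largest photoreceptor marker sum of the control samples (7794). CNV d3 replicate 4, the lowest CNV d3 sample for OXPHOS genes, had the largest of all 12 (13664). The monocyte and macrophage sum was the largest of its group in replicate 3 of control (1379) and of CNV d3 (4507). Within CNV d3 it was lowest in replicates 1 and 4 (1246 and 1322.5). The dividing-cell sum was also lowest there (9385 and 11851). It was highest in CNV d3 replicate 6 (23212) and, in control, in replicate 1 (1438). How far these sums go with the OXPHOS levels was not tested. The members took 0.515% to 0.669% of all normalized counts in control and 0.662% to 0.934% in CNV d3. Without control replicates 3 and 6, the sample with the highest member levels and that with the fewest reads, 32 members were called higher and 0 lower by limma, and the median log2FC was 0.43.

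**Figure D2:**
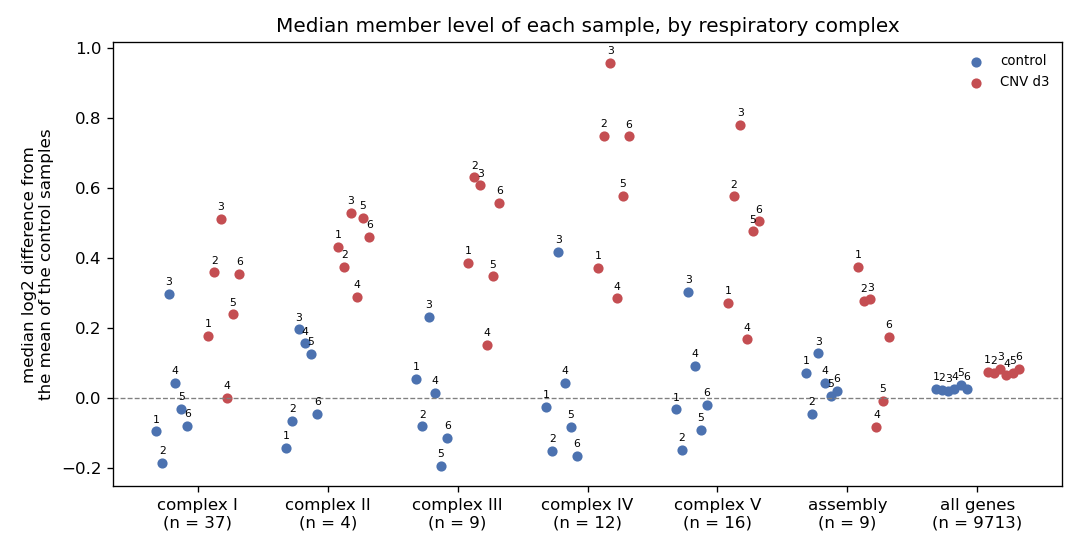
Median over the members of each complex with a mean of at least 100 normalized counts of the log2 difference from the control mean (y axis), with 1 numbered point per sample (blue control, red CNV d3). All genes with a mean of at least 100 are shown at the right, where every sample lies between 0.02 and 0.08. In complex II the groups do not overlap, while in complex I and in complexes III to V control replicate 3 lies above CNV d3 replicate 4.

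The promoters of the members were searched for letters that the transcription factors NRF1, GABPA and YY1, known regulators of OXPHOS genes, are known to bind. RefSeq promoters on GRCm38.p6, from 250 bases before to 50 bases after a start site, were matched for 74 of the 92 members. The letters GCGCATGC of NRF1, on either strand, were in the promoters of 12 of the 74 (16.2%) and of 3.05% of all 27025 genes with a promoter. CCGGAAGT, read by GABPA and other ETS factors, was in 5 (6.76% against 4.31%), and AAGATGGCG of YY1 in 8 (10.8% against 1.64%). Among the 21 members with a promoter that were called higher, 3 held the NRF1 letters, 3 the ETS letters and 0 the YY1 letters, and among the 53 not called the numbers were 9, 2 and 8. A match is a description of these letters and not of binding, and the difference between called and other members was not tested. The background here was all genes with a promoter, whatever their level. The share among genes with a mean of at least 100 normalized counts was not computed.

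A single match for each called member that holds any is shown with 10 bases on each side, 5′ to 3′ on the strand of the gene, with the matched letters in capitals. *Ndufa6* (chromosome 15, 82354357 to 82354384, minus strand), *Sdhb* (chromosome 4, 140961207 to 140961234, plus strand) and *Cox6a1* (chromosome 5, 115349103 to 115349130, minus strand) hold the NRF1 letters, 83, 54 and 162 bases before the start site. In *Cox6a1* the letters overlap their own reverse complement. *Ndufs3* (chromosome 2, 90904704 to 90904731), *Uqcrh* (chromosome 4, 116075064 to 116075091) and *Cox8a* (chromosome 19, 7217605 to 7217632), all on the minus strand, hold the ETS letters, at the shown match, within 11 bases of the start site, and *Cox8a* has a further match past the start site that is not shown.
Ndufa6: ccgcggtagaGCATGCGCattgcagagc
Sdhb: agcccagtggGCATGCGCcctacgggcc
Cox6a1: caggaacgggGCGCATGCgcgctctcgc
Ndufs3: gcacatttccACTTCCGGtccgtgccct
Uqcrh: agtatgccgcACTTCCGGccaggtcgcc
Cox8a: tttccgaaatACTTCCGGctcgggcgtc

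Complex I is the largest complex and had the smallest median log2FC of the 5 complexes. Of its 7 core subunits, which carry the flavin and the iron-sulfur clusters, 2 were called higher (28.6%). Of its 30 accessory subunits 3 were (10%), beside 15.3% of the genes with a mean of at least 100. *Ndufs3*, a core subunit of the peripheral arm (chromosome 2, 90894634 to 90904827 of GRCm38), had 377, 490 and 538 normalized counts (lowest, median and highest) in control and 604, 682 and 725 in CNV d3. The groups did not overlap, and the log2FC was 0.53 ± 0.13 (SE, limma adjusted p = 0.0167). Its exons overlap those of *Kbtbd4*, so reads in the overlap are uncertain.

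*Ndufs1* and *Ndufv1*, the iron-sulfur and the NADH-binding flavin subunits at the entry of the electrons, did not pass the test. *Ndufs1* had 718 to 1715 normalized counts in control (median 1382) and 1557 to 2119 in CNV d3 (median 1648), a log2FC of 0.45 ± 0.19 (SE, limma adjusted p = 0.148). For *Ndufv1* the log2FC was 0.32 ± 0.15 (SE, limma adjusted p = 0.206). The core subunits *Ndufv2* and *Ndufs7* had log2FC values of -0.0047 and -0.13 and were not called either.

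Among the accessory subunits *Ndufa6* and *Ndufb11* had the largest called changes. *Ndufa6* (chromosome 15, 82350140 to 82354322) had 475, 644 and 1289 normalized counts in control and 1056, 1186 and 1241 in CNV d3, a log2FC of 0.82 ± 0.20 (SE, limma adjusted p = 0.0144). The groups overlapped through control replicate 3 alone, which at 1289 was above every CNV d3 sample. *Ndufb11* (chromosome X, 20615326 to 20617619) rose without overlap from 661, 872 and 950 to 1084, 1512 and 1626 normalized counts, with a log2FC of 0.76 ± 0.14 (SE, limma adjusted p = 0.00192). *Ndufa13* was the third accessory subunit called, with a log2FC of 0.51. The highest level per length in complex I was that of *Ndufc2*, with 2961 normalized counts per kilobase of exonic sequence in control and 3230 in CNV d3, and its log2FC of 0.14 ± 0.12 (SE, limma adjusted p = 0.536) did not pass. *Ndufs4*, an accessory subunit known for its role in complex I deficiency, had a mean of 1247 normalized counts in both groups (SD 149 in control and 170 in CNV d3, n = 6 each).

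Complex II, succinate dehydrogenase, is also an enzyme of the tricarboxylic acid cycle and has no mitochondrially encoded subunit. Its 3 called members separated the groups completely. *Sdha*, the flavin-carrying catalytic subunit (chromosome 13, 74322254 to 74350280), had 5400, 5973 and 6937 normalized counts in control and 7398, 8184 and 8418 in CNV d3. The log2FC was 0.42 ± 0.08 (SE, limma adjusted p = 0.0019), beside a median of 0.36 over the 92 members, and its spread was small. *Sdhb*, the iron-sulfur subunit (chromosome 4, 140961203 to 140979193), went from 1732, 2325 and 3031 to 3141, 3665 and 4314 normalized counts, a log2FC of 0.64 ± 0.14 (SE, limma adjusted p = 0.00584). *Sdhd*, 1 of the membrane anchors (chromosome 9, 50596357 to 50603812), went from 2166, 2619 and 2972 to 3092, 3496 and 3749, a log2FC of 0.43 ± 0.10 (SE, limma adjusted p = 0.00916). The other anchor, *Sdhc*, overlapped between the groups and was not called, at a log2FC of 0.23.

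In complex III all 9 members had a log2FC above 0, and 4 were called. *Cyc1*, the cytochrome c1 that passes electrons to cytochrome c (chromosome 15, 76343523 to 76346260), had 1073, 1374 and 1690 normalized counts in control and 1820, 1948 and 2161 in CNV d3. The groups did not overlap, and the log2FC was 0.52 ± 0.12 (SE, limma adjusted p = 0.0105). *Uqcrh*, the hinge protein that binds cytochrome c1 (chromosome 4, 116066965 to 116075071), rose without overlap from 902, 1037 and 1273 to 1340, 1543 and 1985, a log2FC of 0.58 ± 0.13 (SE, limma adjusted p = 0.00651). *Uqcrc2*, a core protein of the matrix side (chromosome 7, 120635176 to 120659524), rose without overlap from 1565, 1749 and 2137 to 2243, 2636 and 3155, a log2FC of 0.55 ± 0.12 (SE, limma adjusted p = 0.00589). *Uqcrq* was the last of the 4, at 0.51, and was called in 3 of the 12 fits with 1 sample left out.

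Its partner *Uqcrc1* and the Rieske iron-sulfur protein *Uqcrfs1* did not pass. *Uqcrc1* had 1797 to 3608 normalized counts in control and 2574 to 3384 in CNV d3, with a log2FC of 0.36 ± 0.14 (SE, limma adjusted p = 0.123). *Uqcrfs1* had 1126 to 2280 in control and 1900 to 2342 in CNV d3, with a log2FC of 0.27 ± 0.14 (SE, limma adjusted p = 0.271). *Uqcr10* had the highest level per kilobase in complex III, 1531 in control and 2127 in CNV d3, and a log2FC of 0.47 with an adjusted p of 0.0843 by limma.

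Complex IV, cytochrome c oxidase, had the largest median fold change. Of its 11 ubiquitous nuclear subunits 9 were called higher, and the other 2, *Cox7c* and *Ndufa4*, had log2FC values of 0.29 and 0.52. *Cox4i1*, the ubiquitous isoform of subunit 4 (chromosome 8, 120668222 to 120674207, exons overlapping *Emc8*), had 3318, 3767 and 5066 normalized counts in control and 5552, 6976 and 7783 in CNV d3. All CNV d3 samples were above all control samples, and the log2FC was 0.83 ± 0.12 (SE, limma adjusted p = 0.000394). *Cox5a* (chromosome 9, 57521274 to 57532426) had 481, 537 and 736 in control and 724, 998 and 1296 in CNV d3, so that control replicate 3 reached just above the lowest CNV d3 sample. Its log2FC was 0.77 ± 0.16 (SE, limma adjusted p = 0.0059). *Cox5b*, *Cox7b* and *Cox8a* were likewise called, with log2FC values of 0.70, 0.68 and 0.49, and these 5 genes kept their call with each of the 12 samples left out in turn.

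The other 4 ubiquitous subunits had less secure calls. *Cox6b1* (chromosome 7, 30616861 to 30626151), the subunit with the highest level per kilobase of complex IV by exonic length, had 2051, 2582 and 3837 normalized counts in control and 2986, 4034 and 4975 in CNV d3, and 1 control sample, replicate 3, lay inside the range of CNV d3. Its log2FC was 0.60 ± 0.16 (SE, limma adjusted p = 0.0194), and it was called in 5 of the 12 fits with 1 sample left out. *Cox6c* was called in 6 of these fits, *Cox7a2* in 3 and *Cox6a1* in 2, with log2FC values of 0.56, 0.59 and 0.47. *Ndufa4* had 1336, 1922 and 3399 normalized counts in control and 2167, 2868 and 4101 in CNV d3 (adjusted p = 0.0983 by limma).

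**Figure D3:**
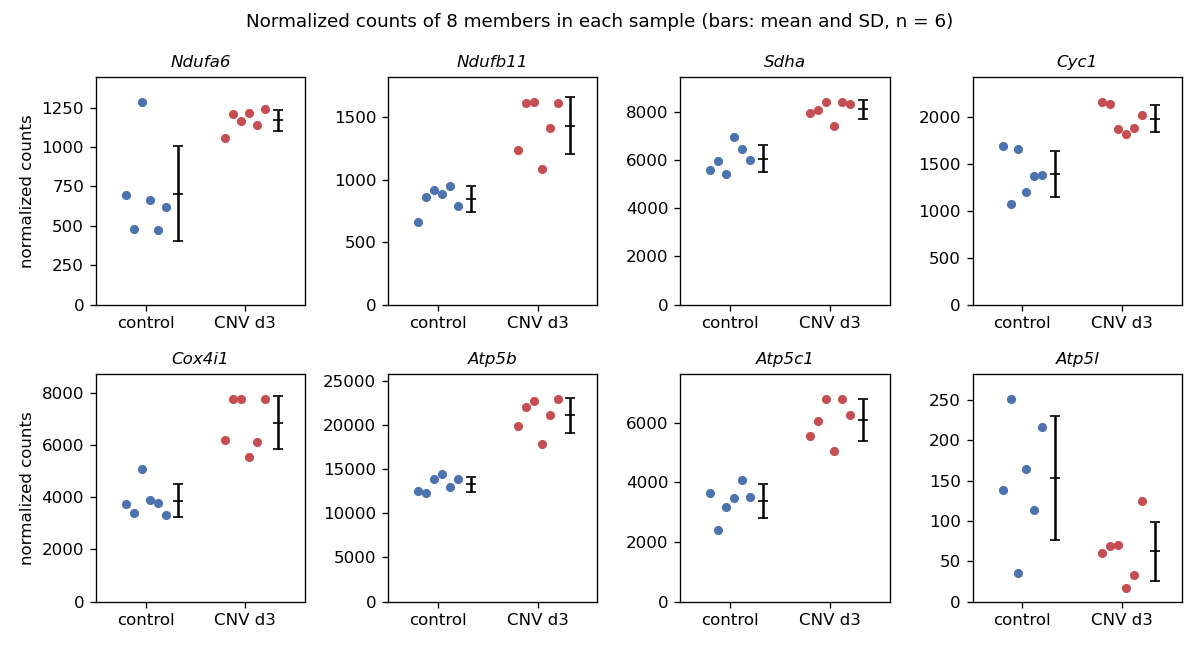
Normalized counts (y axes, starting at 0) of 8 members in each of the 6 control (blue) and 6 CNV d3 (red) samples, with the mean and SD beside the points. *Ndufb11*, *Sdha*, *Cyc1*, *Cox4i1*, *Atp5b* and *Atp5c1* do not overlap between the groups, *Ndufa6* overlaps in 1 control sample, and *Atp5l* is the 1 of these 8 with a lower mean in CNV d3 (62.2 against 153).

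Several subunits of complex IV exist as isoforms of other tissues, and the ubiquitous isoforms made up nearly all of their levels in both groups. *Cox6a2*, the heart and muscle isoform of subunit 6a (chromosome 7, 128205435 to 128206387, exons overlapping *Itgad*), was called higher, from 29.8, 66.6 and 115 normalized counts in control to 107, 153 and 173 in CNV d3, a log2FC of 1.15 ± 0.35 (SE, limma adjusted p = 0.0437). The largest control value exceeded the smallest CNV d3 value, the gene was called in 6 of the 12 fits with 1 sample left out, and edgeR did not call it. Per kilobase, *Cox6a2* made up 3.07% ± 1.4 (SD, n = 6) of subunit 6a in control and 4.55% ± 1.02 in CNV d3, and the rest was *Cox6a1*. *Cox7a1*, the heart and muscle isoform of subunit 7a, had 0 to 31.1 normalized counts in control and 12.6 to 47.4 in CNV d3, at most 4.19% of subunit 7a in any control sample and 3.47% in any CNV d3 sample.

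*Cox4i2*, the lung isoform of subunit 4 known from oxygen sensing, had reads in 1 control sample (11.2 normalized counts) and in 5 CNV d3 samples (3.20 to 13.3), and was not called (adjusted p = 0.175 by limma). *Cox6b2*, the testis isoform of subunit 6b, had 7.94 to 38.6 normalized counts in control and 15.6 to 50.2 in CNV d3. *Cox7b2*, the testis isoform of subunit 7b, was at 0 in all samples but CNV d3 replicate 2, which had 3.34 normalized counts.

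**Figure D4:**
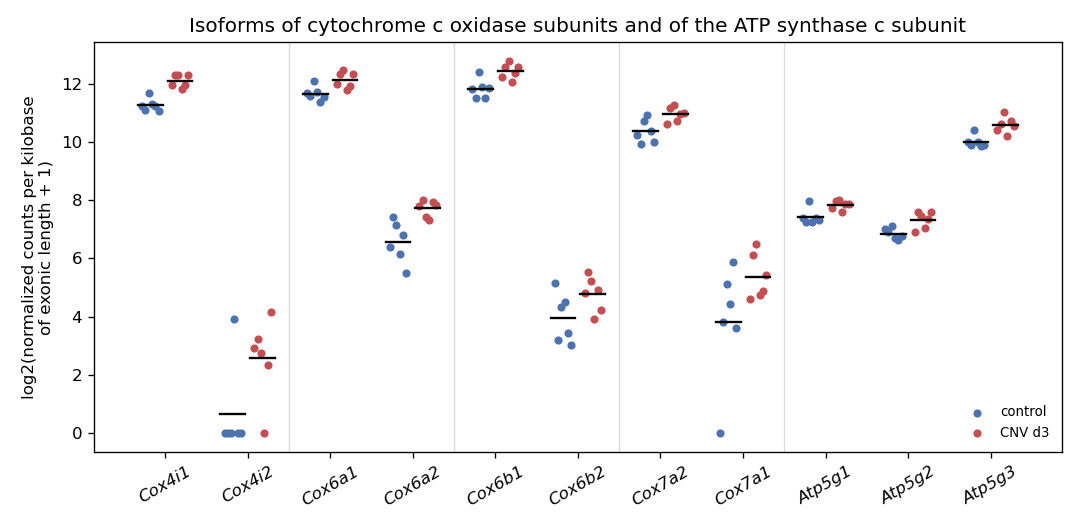
Log2 of normalized counts per kilobase of exonic length, plus 1 (y axis), of the isoforms of complex IV subunits 4, 6a, 6b and 7a and of the 3 genes of the ATP synthase c subunit (x axis), with 1 point per sample (blue control, red CNV d3) and lines at the means. The ubiquitous isoforms *Cox4i1*, *Cox6a1*, *Cox6b1* and *Cox7a2* lie above the isoforms of other tissues in every sample.

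In complex V 7 of 16 members were called. Of the 8 members of the catalytic head, the rotating stalk and the c ring 5 were called higher and all 8 had an unadjusted p under 0.05, and of the 8 members of the peripheral stalk and the membrane part 2 were called. *Atp5b*, the catalytic beta subunit (chromosome 10, 128083273 to 128090391), had the highest level per kilobase of the complex (3142 in control, 4981 in CNV d3). Its normalized counts were 12317, 13403 and 14412 in control and 17893, 21572 and 23010 in CNV d3. The groups were far apart, and the log2FC was 0.66 ± 0.07 (SE, limma adjusted p = 6.1e-05). *Atp5a1*, the alpha subunit of the same head (chromosome 18, 77773729 to 77782869), rose without overlap from 2781, 3148 and 3855 to 4304, 5075 and 5775, a log2FC of 0.65 ± 0.11 (SE, limma adjusted p = 0.000897). *Atp5c1*, the gamma subunit that turns inside the head (chromosome 2, 10056016 to 10080510), had the largest called change of the complex. Its 2398, 3501 and 4094 normalized counts in control stood against 5052, 6165 and 6809 in CNV d3, a log2FC of 0.86 ± 0.12 (SE, limma adjusted p = 0.000346). *Atp5d*, the delta subunit of the same stalk, rose by a log2FC of 0.66, while *Atp5e*, the epsilon subunit, was at 0.42 and not called.

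The c ring in the membrane is built from 1 protein encoded by 3 genes. *Atp5g3* was called higher, from 2033, 2152 and 2948 normalized counts to 2584, 3359 and 4553, with a log2FC of 0.58 ± 0.13 (SE, limma adjusted p = 0.00919). *Atp5g1* and *Atp5g2* had log2FC values of 0.42 and 0.47 with adjusted p of 0.0645 and 0.148 by limma. The mix of the 3 genes moved little: per kilobase *Atp5g3* made up 78.3% ± 0.956 (SD, n = 6) in control and 79.9% ± 1.96 in CNV d3, *Atp5g1* 13% and 11.9%, and *Atp5g2* 8.75% and 8.31%.

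*Atp5pb*, the b subunit of the peripheral stalk, and *Atp5mpl*, a small proteolipid of the membrane part, were called higher with log2FC values of 0.35 and 0.59. Their calls held in 4 and 5 of the 12 fits with 1 sample left out. *Atp5l*, subunit g where the synthase forms dimers (chromosome 9, 44912557 to 44920742, exons overlapping *Gm30934*), went the other way. It had 36, 151 and 252 normalized counts in control and 17.3, 64.2 and 125 in CNV d3, a log2FC of -1.31 ± 0.53 (SE, limma adjusted p = 0.133). The lowest control sample was replicate 3, and without it *Atp5l* was called lower. Its level per kilobase of exonic length, 23.8 in control, was far under the 769 that was the median of complex V. The size of this gap depends on the length used. Over all 12 samples *Atp5l* had 16.7 per kilobase by exonic length and 198 by the longest coding transcript.

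Of the 9 assembly factors 1 was called, and whether they differed from the subunits was not tested. Of *Ndufaf1* to *Ndufaf8* limma, edgeR and voom called 0 (limma had 1 at an unadjusted p under 0.05) and DESeq2 called 1 higher, and their log2FC values ran from -0.29 in *Ndufaf7* to 0.51 in *Ndufaf6*. *Cox7a2l*, the supercomplex factor (chromosome 17, 83501918 to 83517330), was the 1 called gene of this group. It rose without overlap from 629, 742 and 812 to 913, 978 and 1164 normalized counts, a log2FC of 0.43 ± 0.12 (SE, limma adjusted p = 0.0235), and lost its call under upper-quartile scaling and under the replicate block. Of 43 further assembly factors of the complexes that lie outside the rule, *Coa5* and *Higd2a* were called higher (log2FC values of 0.93 and 0.42). *Uqcc1*, needed for complex III, was called lower (-0.66). The 2 called higher were 4.65% of the list, under the 15.3% of the genes with a mean of at least 100. Of those genes 10.8% were called lower. At an unadjusted p under 0.05 limma had 3 higher and 5 lower, while DESeq2 called 3 higher and 4 lower and voom 2 and 2. The median of the 43 was -0.13, and that of the 38 with a mean of at least 100 was -0.03.

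Of the 13 subunits encoded in mitochondrial DNA 10 had values. *mt-Co1*, the catalytic subunit of complex IV, had 8617 to 12382 normalized counts in control and 14246 to 23324 in CNV d3 without overlap, a log2FC of 0.80 ± 0.12 (SE, limma adjusted p = 0.000616). *mt-Nd5* of complex I was called too, at 0.37. The other 8 were not called, among them *mt-Cytb* of complex III at 0.17 and *mt-Nd1* and *mt-Nd4* of complex I at 0.01 and 0.10. *mt-Nd2* of complex I had the 1 lower value at an unadjusted p under 0.05 (log2FC -0.29), and *mt-Nd3* was at 0.84. *mt-Atp6* and *mt-Co3* had means under 1 normalized count in both groups. Mitochondrial genes have near copies in the nuclear genome, and with default counting their reads are uncertain.

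Steps before and between the complexes were looked at with lists of related genes. For comparison, limma called 15.3% of the genes with a mean of at least 100 higher and 10.8% lower. Of 20 genes of the tricarboxylic acid cycle and pyruvate entry DESeq2 called 8 higher and 1 lower. At an unadjusted p under 0.05 limma had 1 lower. By limma, edgeR and voom 7 of the 20 (35%) were called higher and 0 lower, with a median of 0.25 in limma. Among those called were *Fh1* (0.62), *Mdh2* (0.61), *Idh3b* (0.59), *Ogdh* (0.53), *Cs* (0.42) and *Dld* (0.36), while *Pdha1*, *Pdhb* and *Dlat* of pyruvate dehydrogenase and the pyruvate carrier genes *Mpc1* and *Mpc2* were not called. A further list held 21 genes of electron carriers, of ubiquinone synthesis and of phosphate and nucleotide transport. Of these, 6 (28.6%) were called higher and 1 lower, with a median of 0.29. *Slc25a3*, the phosphate carrier, and *Slc25a4* and *Slc25a5*, the exchangers of ADP and ATP, rose by 0.35, 0.43 and 0.29. *Coq7*, an enzyme of ubiquinone synthesis, rose by 1.65, and *Pdss2*, which makes the ubiquinone tail, was lower at -1.17. Cytochrome c itself (*Cycs*) was not called, at 0.30.

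Of 19 regulators of mitochondrial genes *Gabpa* (0.45) and *Hif1a* (0.43) were called higher and 0 lower by limma, edgeR and voom (2 lower at an unadjusted p under 0.05 in limma), DESeq2 called 1 lower, and the median was -0.04. The 2 called higher were 10.5% of the list, under the 15.3% of the genes with a mean of at least 100. *Gabpa* and *Atp5j* share overlapping exons. *Nrf1* and *Yy1*, 2 further factors known to bind promoters of OXPHOS genes, were at -0.24 and -0.38 and not called. *Ppargc1a*, a coactivator, had a mean of 1.05 normalized counts in control (SD 1.15) and 10.8 in CNV d3 (SD 11.4). Its CNV d3 values ran from 0 to 27.7, and it was not called (adjusted p = 0.153 by limma).

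Of the 30 calls, 29 were shared by limma, edgeR, DESeq2 and voom and 22 held with each sample left out in turn. With a correction for transcript length and GC content, 49 members were called higher against 16.2% of the 13606 genes in that fit. Reads were counted without strand, and 32 of the 92 members have exons that overlap another gene. Many OXPHOS genes also have processed pseudogenes in the genome, so reads that fit more than 1 copy are uncertain.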

How the data were processed

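Full-length cDNA from sorted microglia was sequenced in single reads (12 samples). Per the labels and methods, the authors used STAR 2.7.2b, featureCounts 1.6.4 and DESeq2 1.22.2 on GRCm38.p6. The deposited signal values are reads per gene after division by a DESeq2 size factor for each sample. The deposited fold changes, adjusted p-values and group means were not used. In every sample 100% of values were whole multiples of 1 read, to within 0.001, so counts were recovered, including control replicate 5, whose step lies near 1. For 7 samples (the control group and replicate 4 of CNV d3) GEO lists 2 parts, each pair counted as 1.

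The groups were compared by limma 3.58.1 (R 4.3.3) with a trend on log2(normalized counts + 1) over 27299 genes. edgeR 4.0.16 (quasi-likelihood) and DESeq2 1.42.0 were run on the recovered counts. The scripts were tested on simulated data. Lengths and coordinates came from GENCODE M21 (GRCm38), with 27238 genes matched. The members and lists were chosen with earlier results of these data known. Named with full statistics are, per complex, the 2 called members of largest change and the member of highest level per kilobase, the isoforms, and 12 core subunits, less a result not reported here. Others, such as *Atp5l* and *Ndufs4*, were named after their values were seen. Fold changes are differences of mean log2(normalized counts + 1) and not ratios of group means, and in low genes they depend on the added 1. For *Cox4i2* the log2FC was 2.30 with 0.5 added, 1.72 with 1 and 0.68 with 5.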

Additional observations from a re-analysis of the deposited data

Results flagged for a closer look

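Control replicate 3 stood apart from the other 5 control samples for 7 of the 35 members taken by the naming rule and for the median of complex IV, by Dixon's test at 95%. It was the highest control sample for *Ndufa6* (1289 normalized counts, next 694.6), *Cox4i1* (5066, next 3877), *Cox5a* (736.4, next 560.2), *Cox6b1* (3837, next 2681), *Ndufa4* (3399, next 2096), *Atp5g1* (1222, next 821.2) and *Atp5g3* (2948, next 2232). Its median log2 difference over the complex IV members was 0.42, with the next control sample at 0.04. There were 79 groups of 6 tested, of which chance alone flags about 5%, and no CNV d3 group was flagged.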

How the results depend on the processing

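The number of members called higher (30) lay between 23 and 40 in all other fits of the 12 samples but one: 30 with a pseudocount of 0.5 or 5, 36 with a filter on low values, 32 with TMM, 23 with upper-quartile and 34 with total-count scaling, 31 with edgeR or voom, 40 with DESeq2 and 29 after thinning to the shallowest sample. Complex I had 5 calls, 8 with the filter, 10 with DESeq2 and 17 with the length and GC correction. With that correction all members together moved to 49, with an adjusted p under 0.01 to 17 and under the DEG rule to 0. Leaving out single samples gave 22 to 37 members higher and 0 to 1 lower, medians of 0.33 to 0.45, and 1737 to 2319 genes higher and 1022 to 1455 lower over all genes. The 1 member lower was *Atp5l*, without control replicate 3 and by DESeq2 (1 member lower). Over all genes 2264 were higher and 1247 lower, with 2170 lower by DESeq2, 1068 higher and 293 lower under the DEG rule, and 1183 and 635 at an adjusted p under 0.01. DESeq2 had 53.5% of its calls higher, limma 64.5%. Upper-quartile scaling moved the median of the genes with a mean of at least 100 from 0.06 to -0.01. With the replicate number as a block 25 members were called higher and 0 lower. The labels name no pairing, the correlations of samples with the same number were between -0.02 and 0.05, and 1 of 6 samples matched its own number best, so the block was no main design. Levels per kilobase depend on the length used: by the longest coding transcript *Atp5b* had 8982 in place of 4062, and *Cox4i1*, *Sdhb* and *Uqcrb* were highest in their complexes. Of the 35 members taken by the naming rule, changes of sign were 0 in the other fits that gave a value, 25 for each member but *Cox4i2* and *Cox7b2* (23), and *Cox7b2* reached a log2FC of 0. A level of 0 was read against a chosen limit of 3 reads, and isoforms with few reads have wide counting error.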

Other observations

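Some genes of these complexes lie outside the naming rule and were looked at after their values were seen. *AA467197*, the mouse *Nmes1* gene whose protein is related to NDUFA4 and is known to take its place in complex IV of activated macrophages (chromosome 2, 122636986 to 122641191), had 0 reads in all 6 control samples. In CNV d3 it had 20.8, 29.3, 42.8, 90.4, 98.0 and 106 normalized counts, at least 10.8-fold more on average than 3 reads in the shallowest control sample. Per kilobase it reached 1.09% to 4.24% of the sum of *Ndufa4* and *AA467197* in the CNV d3 samples. *Atpif1*, the inhibitor of the ATP synthase (chromosome 4, 132530555 to 132533659), was called higher, with a mean of 1179 normalized counts in control (SD 162) and of 1913 in CNV d3 (SD 431), at a log2FC of 0.68 ± 0.15 (SE, limma adjusted p = 0.00649). *Dmac2l*, a coupling factor of the synthase, was not called, at 0.28.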
